A study of Caenorhabditis elegans with 2 samples.

Results

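The genes described here encode aminoacyl-tRNA synthetases, the enzymes that join each amino acid to its transfer RNA (tRNA) and so set the meaning of every codon. They were chosen from the Ensembl WBcel235 annotation of Caenorhabditis elegans as all protein-coding genes whose symbol is 1 letter followed by ars-1 or ars-2. The rule gave 31 genes of 19973 protein-coding genes, 20 with the suffix -1 and 11 with the suffix -2. The rule itself uses symbols and no measured value.

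Binding was measured by chromatin immunoprecipitation and sequencing (ChIP-seq), which recovers the DNA held by a chosen protein. The single group consisted of 2 biological replicates of whole L1 larvae of strain OP593, aged 6 h and synchronised by starvation after bleaching. These worms carry the integrated transgene wgIs593, in which the homeobox gene ceh-88 carries TY1, EGFP and 3xFLAG tags, together with unc-119(+), in an unc-119 (tm4063) background. An antibody to GFP was used to recover the tagged protein. Binding was therefore that of a tagged extra copy in all cells of the animal that make it, and no worms without the transgene were analysed here, so recovery that any such immunoprecipitation would give cannot be told apart from binding by CEH-88.

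In the cytosol and in mitochondria, protein synthesis uses separate sets of tRNAs. Animals usually have a nuclear gene for each cytosolic synthetase and another for its mitochondrial counterpart, although some genes, such as those for lysine and glycine in many animals, supply both places. In worms the suffix -1 mostly marks the cytosolic enzyme and -2 the mitochondrial one, with exceptions. For example, RefSeq names the product of aars-1 mitochondrial and that of aars-2 cytoplasmic. Some RefSeq names, such as that of vars-1 (valine), give no compartment, so further exceptions cannot be seen from them. All 20 amino acids had a -1 gene and 11 also had a -2 gene. When charged tRNA runs short, animals are known to slow translation through the kinase GCN-2, and in mammals the factor ATF4 then raises many synthetase genes through a DNA element called CARE.

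A gene is called bound below when a peak had its summit in the promoter window, which reached from 1000 bp before to 200 bp after any of its protein-coding transcript starts. Peaks came from 4 deposited lists that had passed a threshold on the irreproducible discovery rate (IDR), a measure of how well the ranks of a region match between repeated measurements. The list called conservative by the authors held 1171 peaks, the other list of the whole series 1349, that of replicate 1 held 1128 and that of replicate 2 held 698. The signal is the peak caller's own measure of peak strength, has no stated scale between lists, and is read here within a list or side by side. Read depth is unknown. Genes are not replicates of each other and there was 1 group, so no test was run and counts are set beside the same count over all protein-coding genes.

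CEH-88 peaks lay at 3 of the 31 synthetase genes, kars-1, mars-1 and ears-2, in the conservative list. These encode the lysine enzyme, the cytoplasmic methionine enzyme and the mitochondrial glutamate enzyme. The share was 9.68%, beside 4.73% of all protein-coding genes, and rests on 3 genes. By suffix, 2 of the 20 genes ending in -1 were bound (10%) and 1 of the 11 ending in -2 (9.09%).

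The DNA under the bound sites is shown because it carries the words counted in the peaks further on. The sequences are from the RefSeq copy of WBcel235, the same assembly as ce11, and run 5′ to 3′ on the strand of the synthetase gene. For kars-1 and mars-1 they are the 101 bases centred on the conservative summit, at chrII:7072722-7072822 and chrIV:11635829-11635929 on the minus strand. For ears-2, where the summit falls in the 5′ UTR, only 30 bases around the word ATCGAA are shown, at chrIV:390425-390454 (minus strand). A further 30 bases of the mars-1 peak, also cut around this word, come from chrIV:11635949-11635978. The word was picked after the sequences had been read. Capitals mark the word ATCGAA, or its reverse complement TTCGAT, and the word ATTGAT.
kars-1: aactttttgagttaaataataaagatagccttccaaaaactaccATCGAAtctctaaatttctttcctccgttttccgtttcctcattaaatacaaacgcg
mars-1 at the summit: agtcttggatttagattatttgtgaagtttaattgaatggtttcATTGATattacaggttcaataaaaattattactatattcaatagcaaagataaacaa
mars-1 upstream of the summit: cgagaaaataaaTTCGATagaaatcaactt
ears-2: cgcctttgcgctATCGAAaccgcacccctc

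The strongest synthetase peak was at kars-1 (WBGene00002238, II:7070183-7072415, minus strand), which encodes lysine tRNA ligase. The conservative peak ran from II:7072574 to 7072969, with its summit at 7072772 in intergenic DNA, 357 bp upstream of the start. Its signal was 165, which placed it at rank 361 of 1171. In the replicates' own lists the signal was 94.1 in replicate 1, with the summit 426 bp upstream, and 74.9 in replicate 2, with the summit 357 bp upstream. Both replicates thus had a thresholded peak at kars-1, with summits 69 bp apart. The opposite gene, kat-1 (a mitochondrial acetyl-CoA acetyltransferase), starts 1042 bp from the conservative summit. That is outside the promoter window, but the replicate 1 summit fell inside the window of kat-1.

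The peak at ears-2 (WBGene00001338, IV:388686-390468, minus strand) had the next highest signal. It ran from IV:390227 to 390622 and its summit, at 390425, was 43 bp downstream of the start, inside the 5′ UTR. The signal was 136 (rank 473 of 1171), with 91.2 in replicate 1 and 58.2 in replicate 2, and the summits of the replicates were 40 bp apart. Only 91 bp separate the starts of ears-2 and of uncp-18 on the other strand, a gene whose product RefSeq names syntaxin-binding protein 1. The same summit lay 135 bp upstream of uncp-18, so the peak belongs to a promoter region shared by both genes.

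At mars-1 (WBGene00003415, IV:11631941-11635487, minus strand) the conservative peak ran from IV:11635681 to 11636076. Its summit, at 11635879, was intergenic and 392 bp upstream of the start. The signal of 123 was near the middle of the list, at rank 539 of 1171. The signal was 61.8 in replicate 1 and 59.2 in replicate 2, with summits 19 bp apart, the closest values of the 3 bound genes. The summit also lay 769 bp upstream of F58B3.6, which faces away on the other strand.

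**Figure D1:**
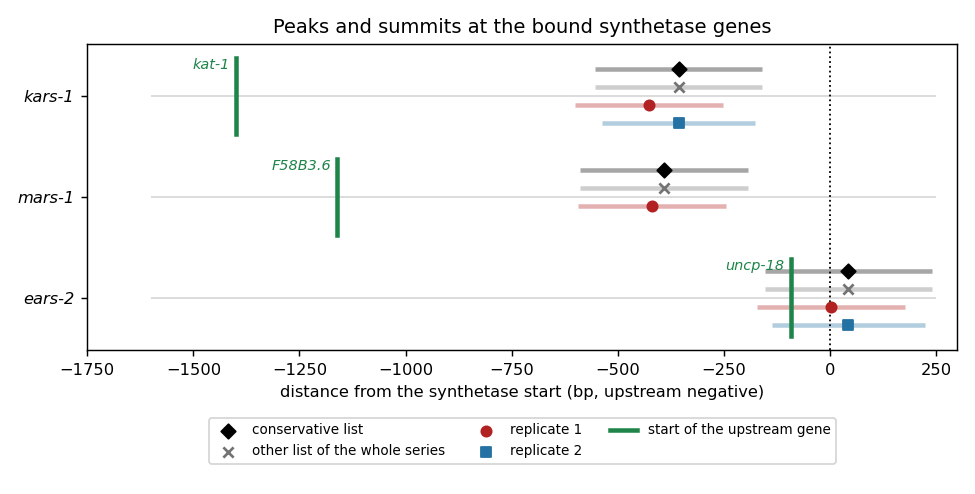
Positions of the peaks at kars-1, mars-1 and ears-2 in 4 thresholded lists, on the horizontal axis as distance in bp from the synthetase start (dotted line), upstream negative. Symbols are summits, pale bars whole peaks, and green ticks starts of the upstream gene. The summits at kars-1 and mars-1 sit between 357 and 426 bp upstream, those at ears-2 between 3 and 43 bp downstream, and mars-1 has no entry for replicate 2.

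Although its signal was as high as that of ears-2 there, mars-1 did not pass the threshold in replicate 2. The deposited score there was 179, which corresponds to an IDR of 0.371, whereas 830 is the lowest score passed and equals an IDR of 0.01. The ranked list of each replicate has further columns without names, which were read, from the column order of the IDR format, as the signal in each of the 2 inputs of the IDR step. On that reading the inputs at mars-1 in replicate 2 had signals of 27 and 12.5, a ratio of 2.15. For kars-1 and ears-2 in replicate 2 the ratios were 1.66 and 1.36, and in replicate 1 the ratios of all 3 genes lay between 1 and 1.26. In the list of replicate 2 alone, 2 of 31 synthetase genes were bound, beside 3.08% of all protein-coding genes. The list of replicate 1 alone had the same 3 genes as the conservative list, beside 4.66% of all genes, and so did the list of 1349 peaks, beside 5.25%. The same 3 genes were called at a score of 1000 only (beside 4.02% of all genes), with windows of 500 bp before and 100 bp after the start (3.71%), with each summit given to its nearest gene only (3.36%), with any peak base in the window (5.09%) and with the most upstream start only (4.4%). With windows of 2000 bp before the start 4 genes were called, iars-2 being added, beside 6.08% of all genes.

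The remaining 28 synthetase genes were followed in the ranked lists, which also hold regions below the threshold. In replicate 1, 22 of the 31 genes (15 ending in -1 and 7 in -2) had a ranked region with its summit in the window, beside 68.9% of all genes. In replicate 2 there were 20 (12 ending in -1 and 8 in -2), beside 74.1% of all genes. In the list of both replicates together there were 23, beside 81.2% of all genes. Both replicates' own lists had a region at 17 synthetase genes, beside 55.9% of all genes, 1 replicate had one at 8, and neither at 6. The median of the strongest signal per gene in replicate 1 was 19 over the 22 synthetase genes and 16.8 over all genes with a region. In replicate 2 it was 17.4 over the 20 synthetase genes and 15.3 over all genes.

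A wide gap separated the bound synthetase genes from the other synthetase genes. The bound genes had signals of 61.8 to 94.1 in replicate 1 and 58.2 to 74.9 in replicate 2. The other synthetase genes with a region reached at most 44.1 in replicate 1 and 30.5 in replicate 2. The bound genes were called from the same libraries, so this gap is a description of them. It did not hold over the genome. Protein-coding genes without a conservative summit reached 178 in replicate 1 and 103 in replicate 2, above the bound synthetase genes.

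**Figure D2:**
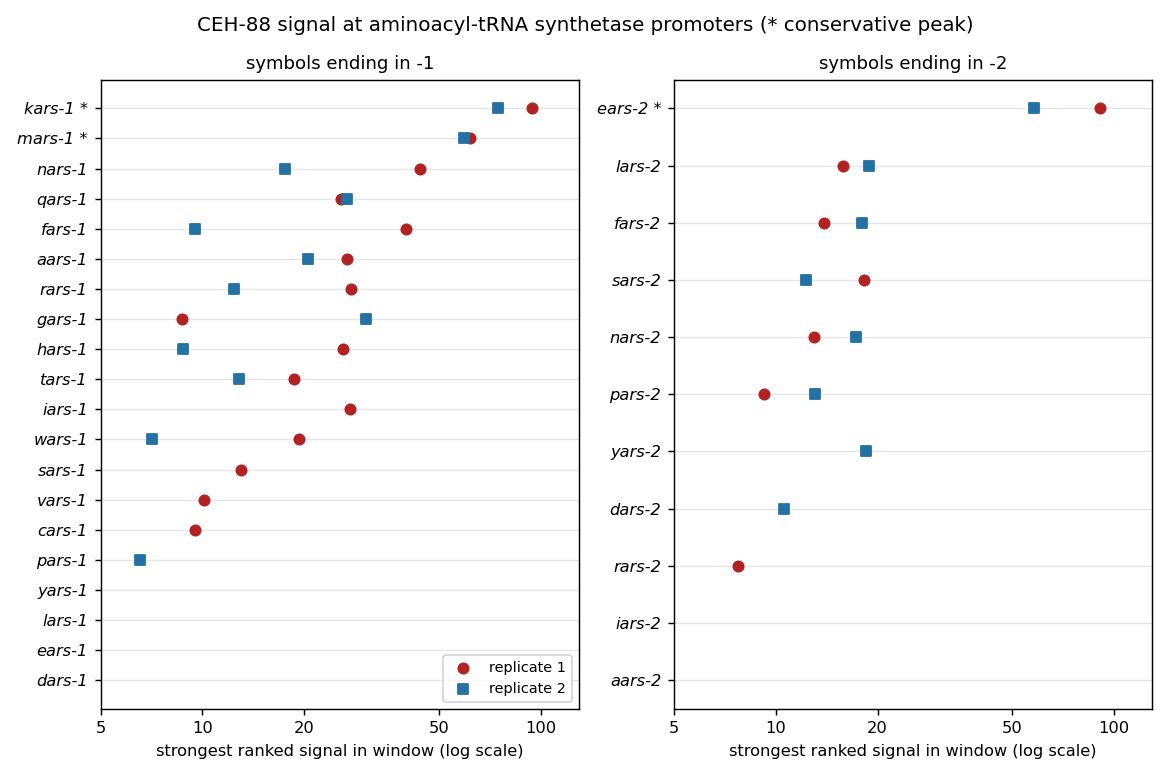
Strongest ranked signal in the promoter window of each synthetase gene (horizontal, log scale), with symbols ending in -1 on the left and in -2 on the right. Circles are replicate 1 and squares replicate 2, a missing symbol means no ranked region, and asterisks mark kars-1, mars-1 and ears-2, the genes with a conservative peak. These 3 genes lie at 58.2 or above in both replicates and the others at 44.1 or below.

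Among cytosolic-type genes without a conservative peak, nars-1 (asparagine) had the highest summed signal. It had 44.1 in replicate 1, with a score of 715, and 17.6 in replicate 2, with a score of 19, and the summits of the replicates were 595 bp apart. Next came qars-1 (glutamine), with 25.6 in replicate 1 and 26.8 in replicate 2 and summits 53 and 122 bp upstream. In the ranked list of the whole series qars-1 had the highest score of any synthetase gene below the threshold, 471, or an IDR of 0.0734. The gene fars-1, for the phenylalanine enzyme, had 39.9 in replicate 1 with a score of 663, but only 9.49 in replicate 2 with a score of 5. Both fars-1 summits lay at about the same place, 877 and 883 bp upstream of a start. No region of an unbound synthetase gene scored 830 or more in a replicate. The highest scores were 715 in replicate 1 and 63 in replicate 2.

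Among genes with a region, the signal summed over the replicates was lowest at pars-1 (proline), rars-2 (mitochondrial arginine) and cars-1 (cysteine). Each had a region in 1 replicate only, with a signal of 6.53 in replicate 2 for pars-1, 7.74 in replicate 1 for rars-2 and 9.51 in replicate 1 for cars-1. A replicate without a region added nothing to the sum, so genes with 1 region were placed low. Among genes with a region in both replicates, wars-1 (tryptophan) had 19.3 in replicate 1 and 7.1 in replicate 2. The 6 genes with no ranked region in either replicate were aars-2, dars-1, ears-1, iars-2, lars-1 and yars-1, for alanine, aspartate, glutamate, isoleucine, leucine and tyrosine. Regions can be missing from a ranked list because the IDR step keeps only those found in both of its inputs, so a missing value is not a signal of 0.

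Of the 10 mitochondrial-type genes other than ears-2, 6 had a region in replicate 1, with a median of 13.4 and a maximum of 18.3 (sars-2), and 7 had a region in replicate 2, with a median of 17.2 and a maximum of 18.9 (lars-2). Over all protein-coding genes without a conservative summit the medians were 16.1 in replicate 1 and 14.8 in replicate 2, so the mitochondrial-type median lay below that of all genes in replicate 1 and above it in replicate 2. Of all such genes 67.4% had a region in replicate 1 and 72.9% in replicate 2. The 18 unbound -1 genes had a median of 25.6 over 13 genes in replicate 1 and 12.6 over 10 genes in replicate 2. The order of the -1 and -2 medians was thus opposite in the replicates. By the products named in RefSeq, aars-1 (26.7 in replicate 1 and 20.5 in replicate 2) would join the mitochondrial set and would then be its highest unbound gene in both replicates.

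The replicates did not rank the unbound synthetase genes alike. Over the 14 unbound genes with a region in both replicates, log2 signals gave a Pearson's r of -0.29 and a Spearman's rho of -0.319. With the 3 bound genes the values over 17 genes were 0.55 and 0.262, so the positive r rested on those 3. Over all 11166 protein-coding genes with a region in both replicates, bound genes included, r was 0.58 and rho 0.399. That set compares with the 17 synthetase genes. No such value was computed over all unbound genes, so the values of the 14 have no counterpart here. Genes share the libraries and the window rule, and these correlations are descriptions across genes. The summits of the replicates were 19 to 69 bp apart at the bound genes and had a median distance of 352 bp, with a range of 6 to 933 bp, at the 14 others, against a median of 203 bp over all 10236 genes of that kind. The largest ratios between replicates among unbound genes were 4.21 at fars-1 in favour of replicate 1 and, at gars-1 (glycine), 30.5 in replicate 2 against 8.68 in replicate 1.

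**Figure D3:**
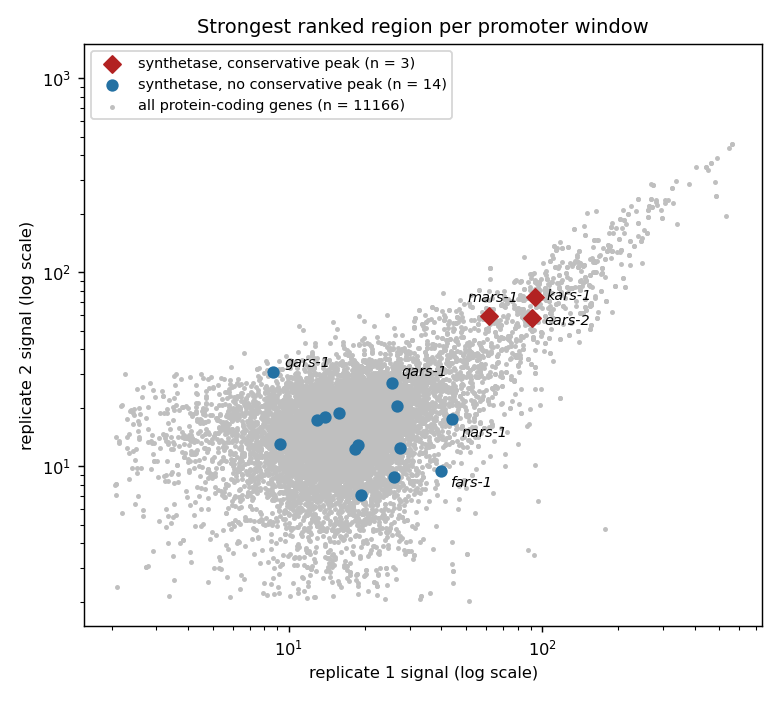
Strongest ranked signal per promoter window in replicate 1 (horizontal) and replicate 2 (vertical), both on log scales, for genes with a region in both. Red diamonds are the 3 bound synthetase genes, blue points the 14 unbound ones and grey points all 11166 protein-coding genes. The bound genes lie on the upper arm where the replicates rise together, and the unbound ones lie within the main cloud or at its edge.

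Synthetase starts tended to lie close to the next gene. The median distance to the next protein-coding gene upstream was 428 bp over the 28 synthetase genes whose start lies in no other gene, against 1058 bp over 18588 such genes in all. An upstream gene on the other strand, facing away, was present at 16 synthetase genes (51.6%, against 42.2% of all genes), and all 3 bound genes were of this kind. In the whole genome 7.46% of genes in this arrangement were bound, beside 2.58% of genes whose upstream neighbour is on the same strand, where 0 of 12 synthetase genes were bound. Of the 3 synthetase genes that start inside another gene none was bound, beside 3.84% of all such genes. The intergenic gaps at the bound genes were 1398 bp (kars-1), 1160 bp (mars-1) and 91 bp (ears-2), and over all 16 genes they ranged from 91 to 4824 bp.

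Closely packed genes on the same strand are often transcribed together as operons in C. elegans, in which case the promoter lies ahead of the leading gene. A same-strand gene ended within 200 bp upstream of 9 synthetase starts (29%), against 9.4% of all genes. These were dars-2, lars-2, nars-2, rars-2 and yars-2 among the -2 genes and gars-1, rars-1, vars-1 and yars-1 among the -1 genes. None of the 9 had a conservative summit in its window, where 2.34% of all such genes did, and none of their upstream neighbours had one, where 11.5% did. The neighbour of yars-1 is Y105E8A.20, which RefSeq calls mars-2 and names as mitochondrial methionine tRNA ligase. It falls outside the symbol rule in Ensembl, had no conservative summit and had no ranked region in either replicate. Whether any of these genes is transcribed from an upstream promoter was not tested.

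Beyond the windows, the median distance from the nearest conservative summit to a start was 28456.5 bp over the 28 unbound synthetase genes, against 40419 bp over the 19029 protein-coding genes without a conservative summit. Of the 28 genes, 9 had one within 10000 bp (32.1%, against 16% of all such genes). Within 2000 bp there were 2, fars-1 and iars-2 (7.14%, against 2.48%). At fars-1 the summit was 1430 bp downstream of a start and within the gene, with a signal of 86.4. At iars-2 it was 1845 bp upstream, with a signal of 249. The next gene upstream of iars-2 on the same strand, C25A1.16, was itself bound, and iars-2 starts inside another gene. None of the 31 windows held a tRNA gene, but the share of all protein-coding windows that hold one was not computed. The tRNA gene nearest to the bound summits was 67722 bp (ears-2), 69428 bp (kars-1) and 85270 bp (mars-1) away. The nearest small nucleolar RNA gene was at least 16822 bp away.

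The sequence at the bound synthetase genes was poorer in G and C than at most CEH-88 peaks. In the 101 bases around the summit the share of G and C was 32.7% at kars-1, 22.8% at mars-1 and 43.6% at ears-2, against a median of 47.5% over the 1171 conservative summits. The 300-base promoters (250 bases upstream of the outermost start to 50 from it) had medians of 33% over the 31 synthetase genes and 34.3% over all protein-coding genes. Words were searched on both strands, and overlapping matches were allowed. The words GAGAGA (a GA repeat), GGCGGG (an Sp1-type word) and CACGTG (an E box) were in none of the 3 synthetase peaks. They were in 44.7%, 17.4% and 13.7% of the conservative peaks of the same 396-base width and in 18.3%, 6.67% and 6.81% of regions of that width below the threshold.

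Of the words related to homeodomain proteins, TAATTA and ATCGAT were in none of the 3 synthetase peaks, beside 16.1% and 19.8% of the conservative peaks. ATTGAT was in the mars-1 peak, at the summit, as shown in capitals above, beside 31.4% of the conservative peaks. With 3 peaks, counts of 0 and 1 say little beside such shares. ATTGAT was in 5.38% of the conservative summit windows of 101 bases and in 10.5% of windows 250 bp away. The word ATCGAA was noticed after the sequences had been read. It was in all 3 synthetase peaks, 4 bp from the summit at kars-1, 15 bp at ears-2 and 85 bp at mars-1. It was also in 27.4% of the conservative peaks and in 26.1% of regions below the threshold, so its frequency did not set CEH-88 peaks apart. In summit windows of 101 bases it was at 2 of the 3 synthetase summits, kars-1 and ears-2, beside 5.55% of all conservative summits. The shares were 9.78% in windows 250 bp away and 7.15% at summits below the threshold. The CARE word TGATGCAA was in 1 of 31 synthetase promoters, that of iars-1, and in 1.2% of all promoters, and no bound synthetase peak held it. A missing word says only that these letters are not in the window.

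The counts by enzyme type were small and are set beside the 4.73% of all genes that were bound. Synthetases fall into class I and class II by the fold of their active site. Of 15 class I genes 2 were bound (mars-1 and ears-2), and of 16 class II genes 1 (kars-1). In humans 8 cytosolic synthetase activities besides that for proline are held in a large multi-synthetase complex, and the worm -1 genes for the same 8 amino acids are dars-1, ears-1, iars-1, kars-1, lars-1, mars-1, qars-1 and rars-1. Of these 2 were bound, and of the other 23 genes 1. The groupings by class and complex were chosen after the values had been seen. By chromosome, 2 of 8 synthetase genes were bound on IV (beside 4.42% of all genes there), 1 of 4 on II (5.16%), 0 of 9 on I (6.67%), 0 of 6 on III (7.54%) and 0 of 4 on V (2.9%). No synthetase gene of the rule lies on X.

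Among 52 other genes, from broad lists drawn up around tRNA use, 9 were bound in the conservative list (17.3%, beside 4.73% of all protein-coding genes). Not every listed gene acts on tRNA itself, so the share is that of the lists. The lists were chosen with earlier results of these data known, so the share is not independent of those results. Most of the 9 bound genes act after the charging step. Of 13 genes of delivery and elongation, 6 were bound. They were eef-1A.1 and eef-1A.2, which encode the factor that brings charged tRNA to the ribosome (signals 297 and 179), eef-1B.1 and eef-1G, subunits of its exchange factor (128 and 225), gfm-1, a mitochondrial elongation factor (110), and iff-2, an eIF5A homologue (502). Of 25 genes listed under tRNA processing and modification, 2 were bound, mtcu-2, whose product is known for modifying mitochondrial tRNA (508), and adr-1 (166). The product of adr-1 is a double-stranded RNA binding protein of RNA editing and its summit was shared with nsf-1. Of 12 genes listed under the response to uncharged tRNA, only abcf-2 was bound (304), and gcn-2 and atf-4 were not. The synthetase genes outside the symbol rule, fars-3 (the beta subunit for phenylalanine) and glp-4 (valine), were not bound. Of the 9 bound genes, mtcu-2 and eef-1A.2 alone shared the summit with no other gene's window.

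**Figure D4:**
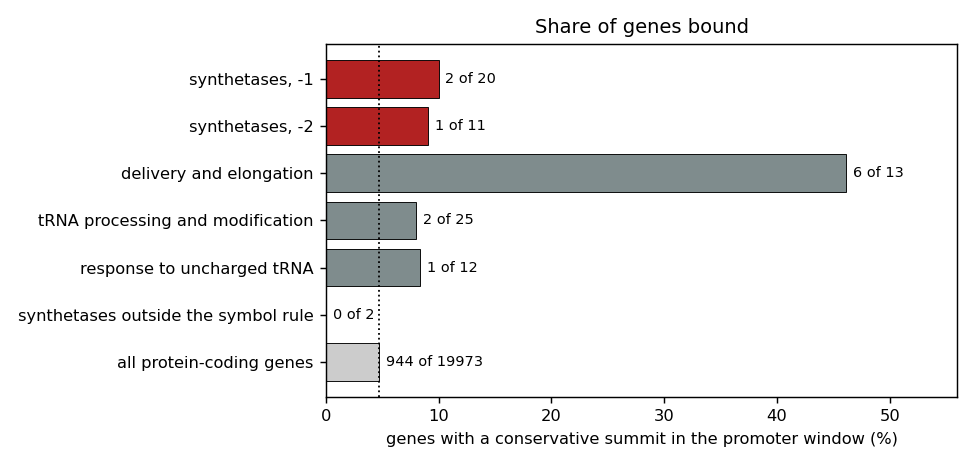
Share of genes with a conservative summit in the promoter window (percent, horizontal) for the synthetase genes by suffix, 4 lists of other tRNA-related genes, and all protein-coding genes (dotted line, 4.73%). The synthetase bars stand for 2 of 20 and 1 of 11 genes, and the longest bar, delivery and elongation, for 6 of 13.

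All 9 of these genes had a signal in both replicates, from 69.1 to 284 in replicate 1 and from 46.8 to 223 in replicate 2. In replicate 1 the bound synthetase genes had 61.8 to 94.1, from just below this range into its lower part. In replicate 2 they had 58.2 to 74.9, in its lower part but above gfm-1 (46.8) and eef-1B.1 (53.3). Such signals were not confined to bound genes. On the delivery and elongation list, eef-2 had no conservative summit, yet had 131 in replicate 1 and 82.4 in replicate 2. In the conservative list the synthetase peaks (123 to 165) compared with a median of 115.1 over all 1171 peaks and with 110 to 508 at the other tRNA-related genes.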

How the data were processed

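The authors deposited IDR ranked and IDR thresholded peak lists on ce11, per the labels, for each of the 2 replicates and for both together. Which aligner and peak caller were used is not given in the sources used here. Per the values, the deposited score follows IDR on a log scale (830 equals an IDR of 0.01, maximum 1000). The deposited signal is the caller's measure of peak strength. The deposited −log10 q-values entered no comparison. Of the ranked lists of the whole series, the one used was that whose inputs match replicate regions (68.4% and 78.5%, against 0 in the other); 8 columns of per-replicate values in these lists were not used.

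Genes came from Ensembl release 115 and sequence from RefSeq WBcel235, on whose 6 chromosomes all regions ended within range. Summits (1-based) were assigned with Python 3.11.15 and pandas 2.3.3, and the assignment was tested on simulated summits. Members, gene lists, words and alternatives were chosen with earlier results of these data known. Every synthetase gene with a thresholded summit was named. So were the 3 others of highest and the 3 of lowest summed signal, and those without a region. Each bound gene of the other lists was also named. Of 62 listed pathway symbols, 9 matched no gene and 1 was a member. No interval or test was computed over the genes.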

Additional observations from a re-analysis of the deposited data

How the results depend on the processing

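Under the settings already listed the bound synthetase genes numbered 3 of 31, or 4 with the 2000 bp windows, and also 3 when at least 0.5 of the peak had to lie in the window. Without 1 replicate the count was 2 to 3, since mars-1 was lost without replicate 1. That of the -1 genes was then 1 to 2 and that of the -2 genes 1. With the 2000 bp windows the -2 count was 2. Synthetase genes with a ranked region in both replicates numbered 8 with the 500 bp windows (beside 32.9% of all genes), 17 as reported (55.9%) and 24 with the 2000 bp windows (78.3%). Genes of the other tRNA-related lists numbered 6 to 11 of 52. The count was 6 with each summit given to its nearest gene only, beside 3.36% of all genes. As reported it was 9 (4.73%), and without replicate 2 it was 11 (4.66%). No paired analysis was possible because there is only 1 group. Read depth was not given in the files used, so its part in missing regions was not tested.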
